A study of Mus musculus with 6 samples.

Results

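The Snrpn to Snhg14 domain of mouse chromosome 7 was examined through 6 member genes, Ube3a, Snhg14, Snrpn, Ndn, Magel2 and Mkrn3. In MBD-seq, DNA fragments carrying methylated CpGs are captured with a methyl-binding-domain protein and sequenced, and a peak is a stretch that such fragments cover more densely than its surroundings. A region is a stretch of genome where the peaks of 1 or more of the 6 libraries overlap or touch. The members' regions were those overlapping a gene span plus or minus 5 kb (build mm10), and there were 77 of them among 166001 in the whole series. The regions were thus chosen by the presence of peaks, and where peaks stood in which library is given below as a description.

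The libraries came from whole lungs of mice aged 12 to 16 months, 3 transgenic and 3 wild type, which the labels call biological replicates. The transgenic genotype is labelled SPC-DNMTdelta3B/DG in replicates 1 and 3 and SPC-DNMTdeltaB/DG in replicate 2. It is a deletion form of the de novo DNA methyltransferase DNMT3B under the promoter of surfactant protein C, which is active in alveolar type 2 cells, so only some of the cells of a lung are expected to express it. The labels name 4 founder lines and do not say which line, or which sex, each of these animals had. Peak lists held 120349, 116352 and 78952 peaks in the transgenic libraries and 60131, 111211 and 30640 in the wild-type libraries. Read depth is unknown. In whole lung, more methylated cells and more methylation per cell or per allele cannot be told apart.

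In an imprinted domain a gene is expressed from the copy of 1 parent only, and DNA methylation laid down in a germ line marks the silent copy. In this domain, the mouse counterpart of the human Prader-Willi and Angelman region, Snrpn, Snhg14, Ndn, Magel2 and Mkrn3 are expressed from the paternal chromosome. The start of Snrpn belongs to the imprinting centre and is methylated on the maternal chromosome, as are the starts of Ndn, Magel2 and Mkrn3 in somatic tissues. Ube3a, which encodes a ubiquitin ligase, is expressed from the maternal copy in neurons, where the antisense transcript Snhg14 covers it on the paternal chromosome. Snhg14 also hosts long tandem arrays of small nucleolar RNA (snoRNA) copies.

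The starts that the results turn on are shown here for their CpGs, although most of the captured DNA lay inside the genes. Each line holds 250 bases before and 50 bases after a RefSeq transcription start (GRCm38.p6, the mm10 assembly), written 5′ to 3′ on the strand of the gene, with every CpG in capitals. The start of Snrpn shown is the one it shares with Snurf, at chr7:60005150-60005449 (minus strand), and the others are Ndn at chr7:62348027-62348326 (plus), Magel2 at chr7:62376729-62377028 (plus), Mkrn3 at chr7:62420104-62420403 (minus) and Ube3a at chr7:59228500-59228799 (plus).
Snrpn: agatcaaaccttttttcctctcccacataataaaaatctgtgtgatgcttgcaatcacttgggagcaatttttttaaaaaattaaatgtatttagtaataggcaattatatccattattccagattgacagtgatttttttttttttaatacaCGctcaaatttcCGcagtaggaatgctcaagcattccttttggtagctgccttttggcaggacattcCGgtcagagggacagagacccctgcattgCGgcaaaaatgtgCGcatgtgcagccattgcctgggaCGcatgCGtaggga
Ndn: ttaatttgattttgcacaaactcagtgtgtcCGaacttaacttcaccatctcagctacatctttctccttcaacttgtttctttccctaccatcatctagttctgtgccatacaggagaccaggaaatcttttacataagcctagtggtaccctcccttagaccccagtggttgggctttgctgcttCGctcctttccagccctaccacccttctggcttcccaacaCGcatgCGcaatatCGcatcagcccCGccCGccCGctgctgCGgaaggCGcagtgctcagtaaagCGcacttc
Magel2: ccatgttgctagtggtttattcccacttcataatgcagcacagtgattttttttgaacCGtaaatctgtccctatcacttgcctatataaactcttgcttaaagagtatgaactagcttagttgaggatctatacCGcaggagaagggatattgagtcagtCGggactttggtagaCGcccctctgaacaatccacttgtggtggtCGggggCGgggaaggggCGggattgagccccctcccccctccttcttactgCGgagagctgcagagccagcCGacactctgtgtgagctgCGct
Mkrn3: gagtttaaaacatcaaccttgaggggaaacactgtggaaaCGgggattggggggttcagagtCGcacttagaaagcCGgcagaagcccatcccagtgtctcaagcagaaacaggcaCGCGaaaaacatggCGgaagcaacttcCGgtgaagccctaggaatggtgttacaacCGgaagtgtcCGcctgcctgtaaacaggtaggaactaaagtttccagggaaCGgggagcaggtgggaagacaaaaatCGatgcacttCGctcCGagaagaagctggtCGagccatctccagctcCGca
Ube3a: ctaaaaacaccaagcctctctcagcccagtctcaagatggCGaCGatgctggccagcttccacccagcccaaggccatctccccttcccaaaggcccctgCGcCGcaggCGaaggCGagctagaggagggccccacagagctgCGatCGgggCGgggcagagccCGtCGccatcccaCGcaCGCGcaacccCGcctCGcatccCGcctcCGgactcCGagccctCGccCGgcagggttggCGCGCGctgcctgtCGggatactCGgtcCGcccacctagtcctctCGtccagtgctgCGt
These windows hold 7 CpGs at Snrpn, 11 at Ndn, 10 at Magel2, 15 at Mkrn3 and 29 at Ube3a, where the median of 32851 mouse promoter windows of the same length is 7. Only 12.9% of all windows hold as many CpGs as that of Ube3a. Of the 300 bases of each window, 167 lay in a peak region at Snrpn, 19 at Ndn, 33 at Mkrn3 and 0 at Magel2 and Ube3a.

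Snrpn has 3 further RefSeq starts far upstream, and the farthest, at position 60450177, is also the start of Snhg14. All 4 Snrpn starts and that of Ndn share the palindrome CGCATGCG, which is part of the consensus site of the transcription factor NRF1 and which 1.87% of all promoter windows hold (a palindrome reads the same on both strands). The stretches around it are given in the order of the starts from the farthest upstream one, with the palindrome in capitals.
Snrpn and Snhg14 start at 60450177: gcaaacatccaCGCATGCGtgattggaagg
Snrpn start at 60140225: gcaaacatccaCGCATGCGtgatgggaggg
Snrpn start at 60047978: gcaaacatgcaCGCATGCGtcgttgaaggt
Snrpn start at 60005199: attgcctgggaCGCATGCGtaggga
Ndn start at 62348277: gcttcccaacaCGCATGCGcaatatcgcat
In 3 upstream Snrpn windows and in that of Ndn the palindrome lies 63, 78, 71 and 23 bases before the start, in the order of the lines. At the start shared with Snurf it lies 36 bases after it. Of the member windows, that of Snrpn at 60005199 alone also holds TGCCGC, read on either strand, the core of the site bound by ZFP57, a protein that protects methylation at imprinting centres. This match does not overlap the palindrome and is shown in capitals, and 11.6% of all windows hold such a match.
Snrpn, ZFP57 core on the opposite strand: gacccctgcattGCGGCAaaaatgtgcgca
A match of letters is a description and not evidence of binding.

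**Figure D1:**
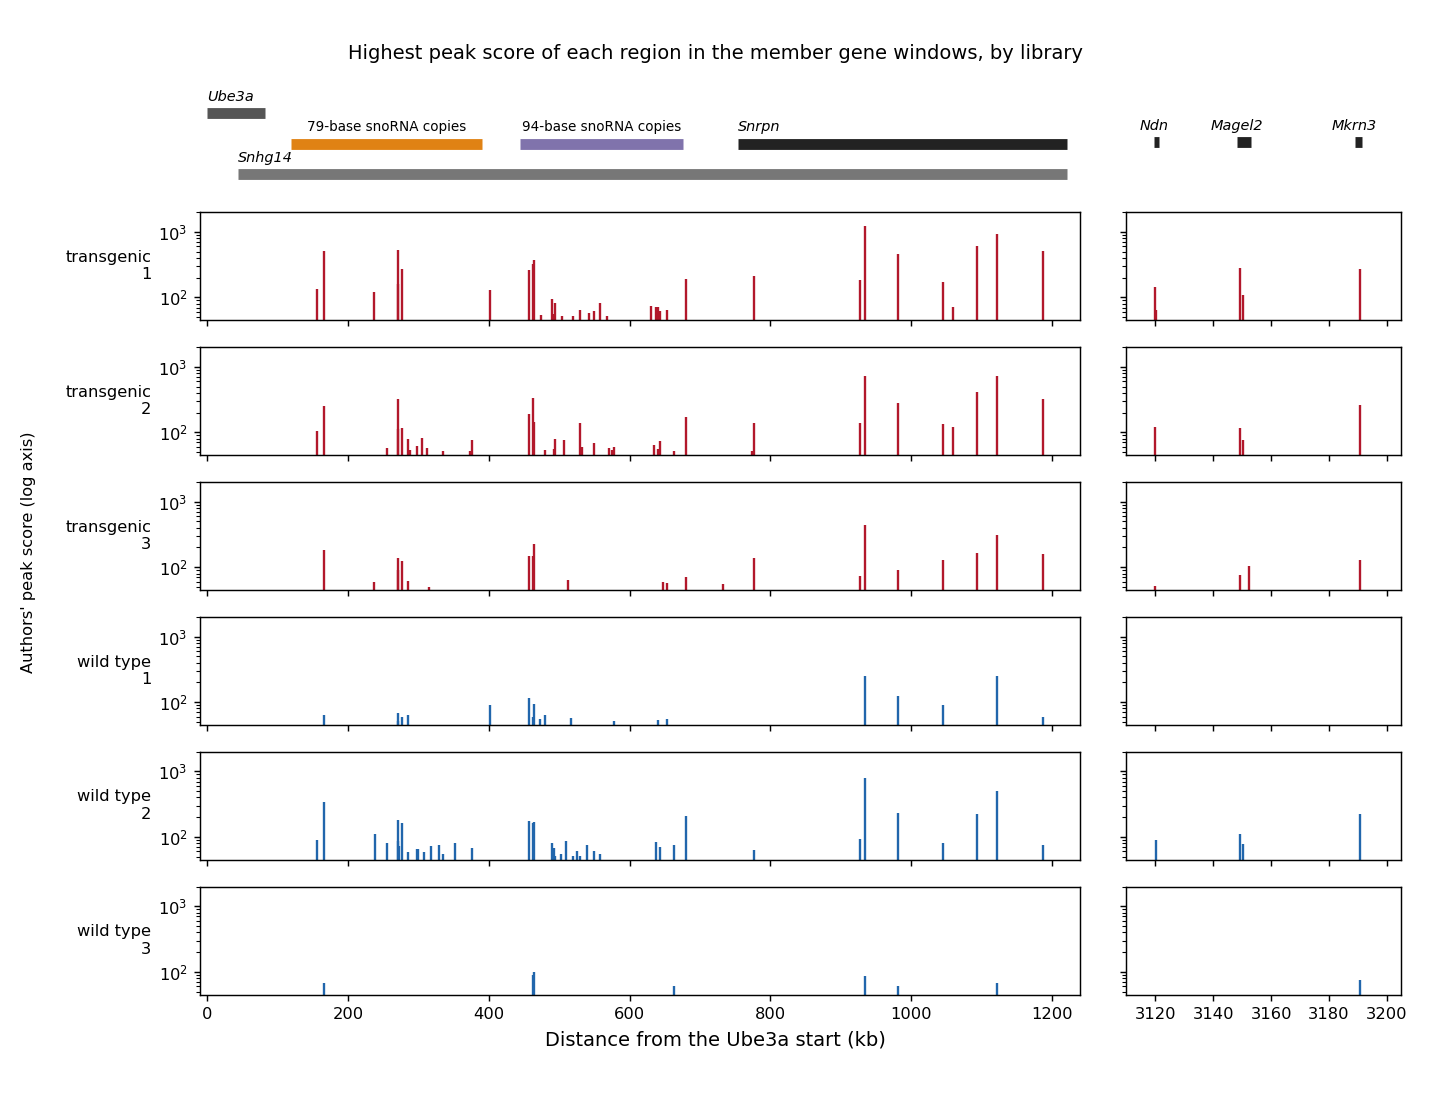
Highest authors' peak score of each region (vertical lines, log axis) in the windows of the 6 member genes, by library, against the distance in kb from the Ube3a start. Bars above show the genes and both snoRNA arrays. Ube3a holds no line in any library, the lines over the arrays are mostly low, and in 5 libraries, all but wild-type replicate 3, the tallest line stands in the upstream part of Snrpn, where transgenic replicate 1 reaches 1222.

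The share of all peaks that fell in the domain differed between transgenic and wild-type lungs by less than the spread between animals. The member windows, 4 separate stretches of 1270 kb in all, held 43, 46 and 28 peaks in transgenic replicates 1, 2 and 3 and 20, 47 and 11 in wild-type replicates 1, 2 and 3. Wild-type replicate 2 was the highest of all libraries, so the groups overlapped. The means were 39 ± 9.64 peaks in transgenic and 26 ± 18.7 in wild-type lungs (SD, n = 3 each), and a two-sided exact permutation test gave p = 0.40, where 3 animals per group cannot give less than 0.10. The difference of 13 peaks became 23.5 when wild-type replicate 2 was left out and 5.5 when wild-type replicate 3 was.

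Peaks covered 21435, 21341 and 12152 bp of the windows in transgenic replicates 1, 2 and 3, against 9237, 20934 and 2466 bp in wild-type replicates 1, 2 and 3 (18309 ± 5333 bp on average in transgenic and 10879 ± 9343 bp in wild-type lungs, SD, n = 3 each, p = 0.20 by exact permutation). Set against the length of each list, the differences were small. The windows held 0.0357%, 0.0395% and 0.0355% of the peaks of the transgenic lists and 0.0333%, 0.0423% and 0.0359% of those of the wild-type lists. The mean shares were 0.0369 ± 0.00228% and 0.0371 ± 0.00463% (SD, n = 3 each, exact permutation p = 0.80). When peaks below the pooled median score of 96.3 were left out, the transgenic share became the higher one, by 0.0138 percentage points (exact permutation p = 0.10, the smallest that the design allows).

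**Figure D2:**
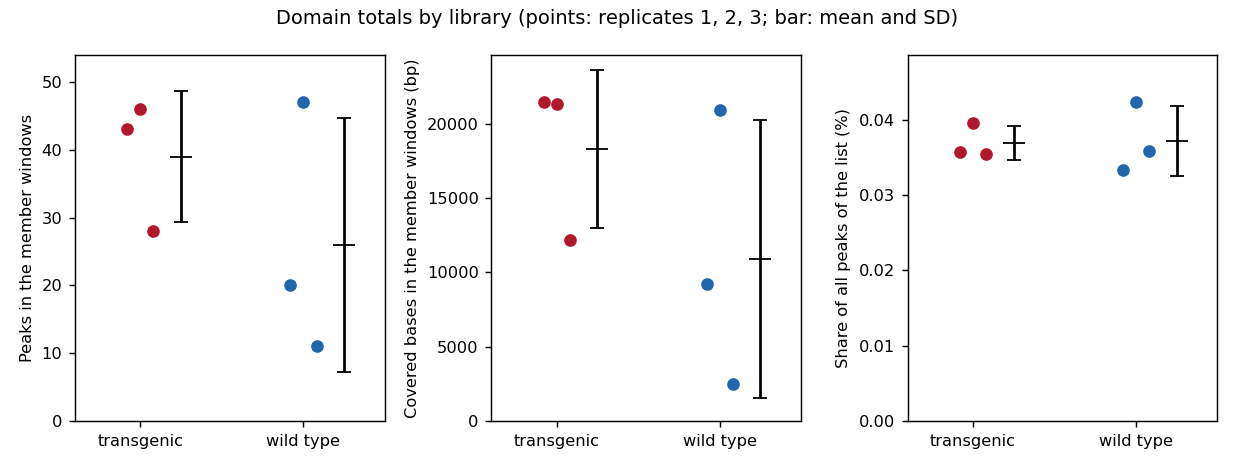
Peaks in the member windows, bases they covered (bp) and their share of all peaks of the list (percent), for transgenic and wild-type libraries (points, replicates 1, 2 and 3 from left; bars, mean and SD). The number of peaks spreads from 28 to 46 in transgenic and from 11 to 47 in wild-type libraries, while the share of the list lies between 0.0333% and 0.0423% in all 6 libraries.

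Of the paternally expressed members, Snrpn, Ndn, Magel2 and Mkrn3 had peaks at a start in every transgenic library, and in 1 or 2 wild-type libraries, while Snhg14 had none at its own start. Snrpn, which encodes a spliceosomal Sm protein, had peaks within 1 kb of the start it shares with Snurf, in the region from 60004350 to 60005316. The highest scores, which are the authors' peak caller's own values and start at 50 in every list, were 209, 139 and 139 in transgenic replicates 1, 2 and 3 and 62.1 in wild-type replicate 2. Wild-type replicates 1 and 3 had no peak there, so every transgenic score lay above the wild-type ones, although scores are not scaled between libraries. Within their own lists these transgenic peaks scored above 69.8%, 65% and 72.9% of peaks, and that of wild-type replicate 2 above 15%. No library had a peak within 1 kb of the 3 upstream starts.

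At Ndn, the gene of the growth-suppressing MAGE family protein necdin, the first region begins 31 bp into the gene, from 62348308 to 62348813. It held peaks with scores of 143, 122 and 52 in transgenic replicates 1, 2 and 3 and none in any wild-type library. The authors' annotation puts a CpG island at 62348253 to 62348744, which this region overlaps. A further region of the same gene begins 596 bp after the start, from 62348873 to 62349365, and held peaks in transgenic replicate 1 (score 64.3) and wild-type replicate 2 (score 90.4). The peak of wild-type replicate 2 thus overlapped the weaker of the peaks of transgenic replicate 1 and none of those in the first region. With gaps of up to 500 bp bridged no region of Ndn was left that wild-type libraries lacked.

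The Ndn region was the only 1 of the 77 regions with peaks in all 3 transgenic and in no wild-type library, which is 1.3%, against 1.80% of all regions in the series. None of the 77 showed the opposite pattern, which 0.0145% of all regions did. A share this close to that of the whole series is no result about the domain. The count was 6 without wild-type replicate 2, and 2 without either transgenic replicate 2 or transgenic replicate 3.

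Magel2, another MAGE family gene, which encodes a regulator of protein ubiquitination and recycling, had its nearest region from 62377549 to 62378331. The peaks began 918, 937 and 570 bp from the start in transgenic replicates 1, 2 and 3 and 878 bp from it in wild-type replicate 2. Scores were 281, 115 and 75.5 in transgenic replicates 1, 2 and 3, against 112 in wild-type replicate 2 and no peak in wild-type replicates 1 and 3. The wild-type value lies between those of transgenic replicates 2 and 3. A region further inside, from 62378516 to 62379470, had peaks in transgenic replicates 1 and 2 and in wild-type replicate 2 (scores 107, 75.8 and 78.9), and 1 from 62380949 to 62381201 had a peak in transgenic replicate 3 only (score 104).

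Mkrn3, which encodes a RING-finger ubiquitin ligase, had the start region found in most libraries. Its peaks joined into a region from 62418918 to 62420136, inside this short gene. The nearest peak lay 17, 478 and 712 bp from the start in transgenic replicates 1, 2 and 3, and 703 and 928 bp from it in wild-type replicates 2 and 3. The highest scores were 269, 257 and 129 in transgenic replicates 1, 2 and 3, and 221 and 75.5 in wild-type replicates 2 and 3, with no peak in wild-type replicate 1. Transgenic and wild-type scores overlapped. When each list was cut to its 30640 highest-scoring peaks, Mkrn3 still had its peak in 5 libraries, while Snrpn and Magel2 had theirs in 1 library each and Ndn in none.

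**Figure D3:**
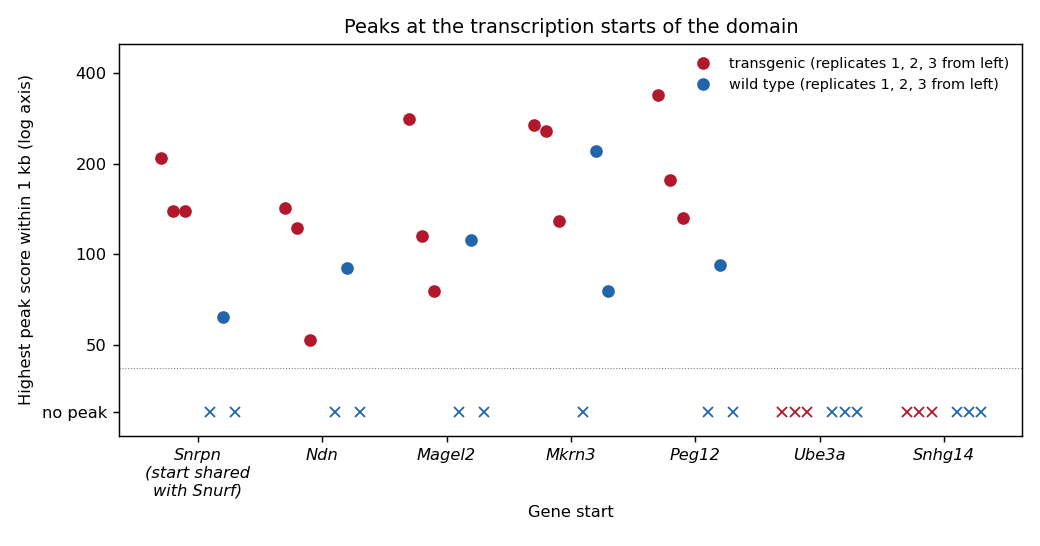
Highest authors' peak score within 1 kb of a transcription start (log axis, crosses for libraries with no peak), with transgenic replicates 1, 2 and 3 left of wild-type replicates 1, 2 and 3 for each gene. All 3 transgenic libraries have a peak at Snrpn, Ndn, Magel2, Mkrn3 and Peg12, wild-type replicate 1 has none, and no library has one at Ube3a or Snhg14.

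Of the 6 members, 4 had a peak at a start in each transgenic library, against 13.9%, 13.2% and 8.56% of 27026 mouse genes in the same lists. In wild-type replicates 1, 2 and 3 it was 0, 4 and 1 members, against 6.39%, 13.6% and 2.72% of all genes. The pattern of peaks in 3 transgenic and 1 wild-type library, shown by Snrpn, Ndn and Magel2, was common, since 33% of the 1881 genes with a start peak in all 3 transgenic libraries had it. Mkrn3, with peaks in 2 wild-type libraries, belonged with a further 38% of those genes. None of the 6 members had a start peak in all 6 libraries, against 1.69% of all genes, and 2 members, Ube3a and Snhg14, had none in any, against 80.7%. Of all genes, 0.326% had start peaks in all 3 transgenic and no wild-type library, and none of the 6 members did when any peak within 1 kb was counted.

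Other genes of the domain and its surroundings framed these values. Peg12, a paternally expressed intronless gene next to Mkrn3, had start peaks with scores of 338, 177 and 132 in the transgenic libraries and 92.2 in wild-type replicate 2, again with none in wild-type replicates 1 and 3. Ipw, a noncoding transcript that starts inside the Snord116 array, had none. Of 12 flanking genes such as Atp10a, Gabra5, Oca2 and Herc2, 10 had a start in the table used. None of the 10 had a peak there in any library, as was the case for 80.7% of all genes, so this sets them little apart. Outside the domain, 16 imprinted genes with maternal methylation were listed and 13 had a start in that table. In transgenic replicates 1, 2 and 3 it was 11, 9 and 9 of the 13 that had a start peak, and in wild-type replicates 1, 2 and 3 it was 8, 10 and 3. Kcnq1ot1, an antisense noncoding RNA, had start peaks in all 6 libraries, and Peg3, a zinc-finger gene, had them in the same 4 libraries as Snrpn. Wild-type replicate 1 thus had start peaks at 8 of these 13 genes and at 0 of the 6 members. These sets are unlike, since 2 of the members, Ube3a and Snhg14, had no start peak in any library. The 13 genes were listed for maternal methylation, and its place relative to the start used was not checked.

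Ube3a carried no peak in any library, over a window of 92.1 kb. The nearest regions lay 17.8 kb before its start, where all 6 libraries had a peak, and 73.5 kb beyond its end, so that 173 kb without a peak in any list surrounded the gene. Its promoter window, shown above, has the most CpGs of the member windows, and the authors' annotation places a CpG island over it, at 59228599 to 59229618. Of 3053 protein-coding genes with a window at least as long, 47 (1.54%) had no peak in any library. Longer windows have more room for a peak, and windows of like length were not compared. The lack of a peak does not show that the DNA was unmethylated, since single methylated CpGs far apart are captured poorly. The promoter window holds 29 CpGs, and of all genes 80.7% had no start peak in any library. Why no peak stood at this start or over the rest of the gene was not tested.

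In 5 of the 6 libraries the highest peak score of the domain lay in the long upstream part of Snrpn, which Snhg14 shares. In wild-type replicate 3 the highest, 101, lay in the Snord116 array. A region from 60162592 to 60163984, 22367 bp from the Snrpn start at 60140225, had scores of 1222, 724 and 433 in transgenic replicates 1, 2 and 3 and 251, 788 and 87.1 in wild-type replicates 1, 2 and 3. In 5 of the 6 libraries this peak scored above 98.3% or more of the peaks of its own list, and above 72.4% in wild-type replicate 3. Another region, from 60350717 to 60351626, had scores of 938, 725 and 315 in the transgenic libraries, against 248, 497 and 66.6 in the wild-type libraries. A further region from 60209262 to 60209751 was also found in all 6 libraries, with scores of 459, 282 and 90 in the transgenic and 123, 228 and 61.1 in the wild-type libraries. Values of the groups overlapped at each of these regions, because wild-type replicate 2 lay above transgenic replicate 3.

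Of the 10 regions in the window of Snrpn, 8 were found in 4 or more libraries (80%), against 41.4% of all regions of the series. The region from 60155427 to 60155968 overlaps Gm7367, an annotated transcribed pseudogene, and that from 60273844 to 60274251 inside the pseudogene Gm18129. Peaks covered 1.16%, 1.17% and 0.924% of the Snrpn window in the transgenic libraries and 0.621%, 0.95% and 0.219% in the wild-type libraries (means 1.08 ± 0.137% and 0.596 ± 0.366%, SD, n = 3 each). Over all gene windows the median was 2.19%, 1.85% and 0.596% in transgenic replicates 1, 2 and 3, against 0%, 1.83% and 0% in wild-type replicates 1, 2 and 3.

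In the transgenic libraries and wild-type replicate 2 the windows of the short genes were covered more densely than those of Snrpn and Snhg14. In wild-type replicate 1 all 3 short genes were at 0%, as were Ndn and Magel2 in wild-type replicate 3. The windows of Ndn, Magel2 and Mkrn3 are 11.7, 14.7 and 12.6 kb long, against 478 kb for Snrpn and 1187 kb for Snhg14. A single peak therefore covers a larger percent of a short window, and gene windows of like length were not compared. Mkrn3 had 9.17%, 4.9% and 2.87% of its window covered in transgenic replicates 1, 2 and 3 and 0%, 3.33% and 1.36% in wild-type replicates 1, 2 and 3. For Magel2 the values were 8.4%, 5.89% and 6.17% in the transgenic libraries against 0%, 9.12% and 0% in the wild-type libraries. Ndn had 7.59%, 4.26% and 2.87% covered in transgenic and 0%, 4.22% and 0% in wild-type libraries. By the transgenic means the order was Magel2 (6.82 ± 1.38%), Mkrn3 (5.65 ± 3.22%), Ndn (4.9 ± 2.43%), Snhg14 (1.35 ± 0.403%), Snrpn (1.08 ± 0.137%) and Ube3a (0%), all SD with n = 3. Neighbours among the first 3, and Snhg14 and Snrpn, differed by less than the larger of their SDs.

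Most regions of the domain lay in the snoRNA arrays of Snhg14. RefSeq lists 133 copies of 78 or 79 bases over 271 kb and 70 copies of 90 to 94 bases over 231 kb. Of the longer kind, 18 are named Snord116 in the table, as symbols or synonyms, and the shorter copies carry no family name there. Snord116 copies are box C/D snoRNAs whose deletion is tied to Prader-Willi syndrome in humans. The array of shorter copies held 23 regions and that of longer copies 35, against 19 in the rest of the member windows. Peaks per library were 6, 14 and 7 in transgenic and 5, 17 and 1 in wild-type replicates 1, 2 and 3 for the shorter copies. For the longer copies they were 19, 17 and 6 in transgenic and 9, 17 and 3 in wild-type libraries.

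Many peaks of the arrays gathered at 1 place in the repeat unit. Along the Snord116 array, whose copies follow each other at a median spacing of 2528 bp, 53 of 71 peaks (74.6%) had their centre between 700 and 450 bp to the lower-coordinate side of the nearest copy, a band that is 9.89% of the spacing. Their median offset was -560 bp. By library they were 16 of 19, 14 of 17 and 3 of 6 peaks in transgenic replicates 1, 2 and 3, and 5 of 9, 14 of 17 and 1 of 3 in wild-type replicates 1, 2 and 3. In the array of shorter copies, at a median spacing of 1871 bp, 25 of 50 peaks (50%) had their centre 600 to 800 bp to the higher-coordinate side, a band that is 10.7% of the spacing, with a median offset of 718 bp. Most of these came from 2 libraries, since the band held 1 of 6, 9 of 14 and 3 of 7 peaks in transgenic replicates 1, 2 and 3, and 1 of 5, 11 of 17 and 0 of 1 in wild-type replicates 1, 2 and 3. Both bands were set after the offsets were seen. Peaks inside them were weak, with median scores of 60.6 for the Snord116 array and 64.3 for the other, against 158 and 125 for the other peaks of the same arrays.

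**Figure D4:**
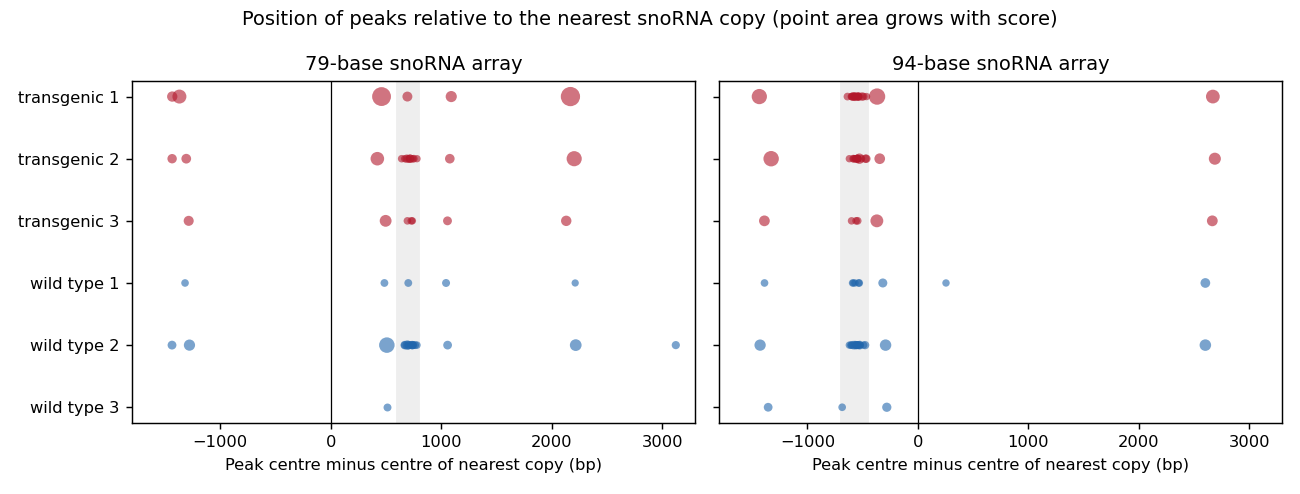
Distance in bp from the centre of the nearest snoRNA copy to each peak centre, by library, in the array of 79-base copies and in that of 94-base copies, with point area growing with the authors' score. Grey bands run from 600 to 800 bp and from -700 to -450 bp, and hold 25 of 50 and 53 of 71 peaks.

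Which copies carried such a peak differed from library to library. Of the 70 longer copies, 31 had a peak in the band in some library, and of these 17 had it in 1 library, 6 in 2 and 8 in 3, with none in 4 or more. Of the 133 shorter copies it was 17, of which 11 had the peak in 1 library, 5 in 2 and 1 in 4. Over both arrays 51.7% of the 58 regions were found in 1 library only, against 15.8% of the 19 regions in the rest of the member windows and 28.4% of all regions of the series. Copies of an array resemble each other, and the sources used here do not give the placement of reads that match several of them, so its part in this pattern was not tested.

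**Figure D5:**
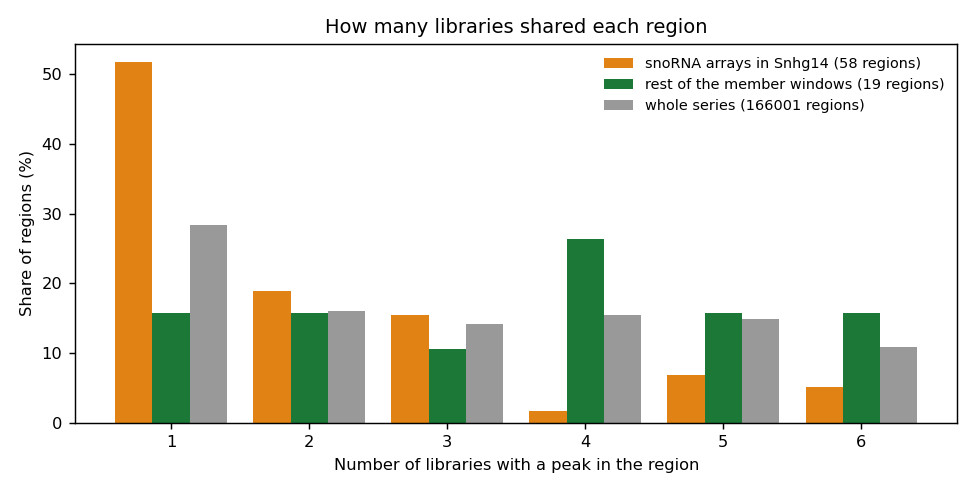
Share of regions (percent) by the number of libraries with a peak in them, for the snoRNA arrays of Snhg14, the rest of the member windows and the whole series. Bars are highest at 1 library for the arrays (51.7%), while 57.9% of the regions in the rest of the windows were shared by 4 or more libraries.

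The 7 array regions shared by 5 or 6 libraries stood in interruptions of the arrays or, for 1 of them, at the edge of an interruption. None of their peaks lay in the bands, and the annotated copies that bound these interruptions were 9157 to 11769 bp apart, several times the usual spacing. In the Snord116 array, the regions from 59691403 to 59692366 and from 59692529 to 59693364 were found in all 6 libraries. The first of this pair had scores of 326, 335 and 147 in the transgenic and 60, 166 and 88.1 in the wild-type libraries. The second had 379, 145 and 224 in the transgenic and 95, 171 and 101 in the wild-type libraries, and its lowest score was the highest among the 77 regions. This second region overlaps the snoRNA copy Gm26365, which bounds the interruption. Its peak centres lay at offsets from -372 to -282 bp from the centre of that copy. In the other array, the region from 59393746 to 59394344 was found in all 6, with scores of 515, 252 and 185 in the transgenic and 63.5, 339 and 66.8 in the wild-type libraries. Over all member windows 6 of 77 regions (7.79%) were found in all 6 libraries, against 10.9% of the regions of the series.

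The authors' deposited table of differential regions has 1 region in the member windows, and it lies in the Snord116 array. In the authors' deposited table it covers 59891384 to 59891773, between Snord116l4 and Snord116l3, with its edge 338 bp from Snord116l3 by the authors' annotation. Its log2 concentration in the authors' deposited table was 2.02 in transgenic and 4.08 in wild-type lungs, a log2 fold of -2.06, or 4.17-fold lower in transgenic lungs, with an FDR of 0.0432. By size of decrease it stood at rank 23 of the 103 regions that the authors' deposited table gives as lower in transgenic lungs. Its log2 concentration over both groups was low, at 3.39, which was rank 47 from the lowest among the 407 differential regions. Peaks stood there in transgenic replicate 2 (score 50.9) and in wild-type replicates 2 and 3 (scores 75.6 and 60.2), and in none of transgenic replicates 1 and 3 or wild-type replicate 1. The peak calls of the groups therefore overlapped, and these scores were near the lowest possible value of 50.

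All 3 peaks at this region stood in the band described above, at offsets of -564 bp in transgenic replicate 2 and of -552 and -686 bp in wild-type replicates 2 and 3 from the centre of Snord116l3. The FDR and p-value in the authors' deposited table imply 92205 tested regions, which is the number of regions with peaks in 3 or more libraries. The windows held 30 of these, and the differential region was 1 of the 30 (3.33%), against 0.441% of the tested regions in the whole series, made up of 0.112% lower and 0.330% higher in transgenic lungs. A single region is too few to tell these shares apart. No other region of the Snord116 array was in the authors' deposited table. Of the array's 35 regions, however, 18 had a peak in 1 library and 6 in 2, and by the count above those were not tested. The regions nearest the starts of Snrpn, Ndn, Magel2 and Mkrn3 had peaks in 3 or more libraries and were not in the authors' deposited table either. Ube3a had no peak in any library, so nothing at its start could be listed.

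Between the windows of Snrpn and Ndn lie 1888 kb that belong to no member. The interval from Ube3a to Mkrn3 held 45 regions outside the windows. Of these, 11 (24.4%) were found in all 6 libraries, against 10.9% of all regions, and 4 (8.89%) in the 3 transgenic libraries only, against 1.80%. The authors' deposited table gives 2 of them as higher in transgenic lungs, inside the noncoding genes A230006K03Rik (log2 fold 0.50, FDR 0.0434) and B230209E15Rik (log2 fold 0.51, FDR 0.0703). They were 6.25% of the 32 outside regions with peaks in 3 or more libraries. In the whole series the share was 0.441% in either direction and 0.330% for regions higher in transgenic lungs. These counts of 4 and 2 regions are small, and the difference in shares was not tested. The 13 copies of the Mir344 microRNA family in this interval had no peak within 1 kb in any library, and no like share over all microRNA genes is given here.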

How the data were processed

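Genomic DNA of 3 transgenic and 3 wild-type mouse lungs was captured with a methyl-binding-domain kit and sequenced, per the labels' protocols. Reads were aligned with Bowtie to mm10, and the submitters' processing notes also name DiffBind and edgeR. Peaks were called for each library by MACS, per the peak names in the deposited lists, with no version or settings recorded in the sources read. The peak score is the authors' own value, and no scaling between libraries is recorded. For differential regions the authors' deposited table gives log2 concentrations, log2 fold, p-value and FDR of each differential region, of which none was recomputed; its starts are 0-based, while starts of regions and peaks are 1-based. The authors' annotation tables supplied distances in bp.

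Overlapping or touching peaks of the 6 lists were joined into regions. Gene spans and starts came from RefSeq tables (GRCm38.p6), in which all 6 member genes were found; an overlap of 1 bp counted. Library totals were compared by two-sided exact permutation of group means over 20 splits. The merging and the permutation test were checked on simulated data. Groups and replicate numbers follow the titles. Members, gene lists and tests were chosen with earlier results of these data known. Regions named were those at a start, those in all 6 lists, those with the highest lowest score, and group-specific or differential ones, plus others chosen after their values were seen (60155427, 60273844 and the inner regions of Ndn and Magel2). Python 3.11.15, NumPy 2.4.6 and Matplotlib 3.10.9 were used.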

Additional observations from a re-analysis of the deposited data

How the results depend on the processing

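Difference below means transgenic minus wild type. The difference in domain peaks (13) and covered bp (7430) kept its sign under every alternative run. The difference in the share of list peaks (-0.000231 percentage points) and of list covered sequence (-0.000596) turned positive in several: 0.00106 and 0.00213 with the snoRNA repeats left out, 0.00762 and 0.00505 with lists cut to equal length by score, and 0.0138 and 0.00963 without peaks below the pooled median score. With 1 library left out they ran from -0.00217 to 0.00233 and from -0.00238 to 0.000431; the cause was not tested. No exact permutation p was below 0.10, the smallest the design allows. The transgenic-specific count of 1 was 2 with a flank of 20 kb, 5 over the whole interval, 3 at or above the median score, 0 with gaps of 500 bp bridged, and 1 to 6 with 1 library left out, which drops a condition of the definition. Differential regions numbered 3 over the whole interval and 0 without the repeats.

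Without flanks the difference in covered percent was 24.7 at Ndn, 11.9 at Magel2 and 20 at Mkrn3, because the windows shrink, and it was 0 at Ndn with equal numbers of peaks. Within 500 bp of a start, Magel2 had a peak in 0 libraries and Mkrn3 in 2; with equal numbers of peaks the counts were 1 for Snrpn, 0 for Ndn and 1 for Magel2. With the replicate block the differences stayed 13 peaks, 7430 bp, -0.000231 and -0.000596 percentage points, with exact sign-flip permutation p of 0.50, 0.25, 0.75 and 0.50, where 0.25 is the smallest possible. Same-numbered libraries did not deviate together over all regions (correlations -0.034, 0.011 and -0.001), and not every library correlated best with its own number. With 3 libraries per group these values cannot show whether same-numbered samples share more than a number, and the titles do not say. Read depth is unknown, so how far it limits the shortest list (30640 peaks) was not tested.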
